A study of Mus musculus with 2 samples.

Results

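NF-κB is a family of dimeric transcription factors that switches on inflammatory and survival genes, and the transcripts of 9 of its subunits, inhibitors and activating kinases were followed here through the cell classes of the mouse hippocampus. The 9 genes, *Nfkbia*, *Nfkbiz*, *Nfkb1*, *Nfkb2*, *Rela*, *Relb*, *Rel*, *Tnfaip3* and *Ikbkb*, were taken by symbol from the 32285 genes counted, and all 9 were found. The counts come from snRNA-seq, the sequencing of RNA from single nuclei, with 10x Genomics 3′ chemistry, in which each counted molecule carries a unique molecular identifier (UMI). There was 1 library of PS19 mice (PS19+/- *Zbp1*+/+) and 1 library of PZKO mice (PS19+/- *Zbp1*-/-), for which tissue of 5 males, 9 months old, had been pooled, the genotypes being littermates. Both groups carry the PS19 transgene, a mutant human tau under the mouse prion protein promoter, and they differ in *Zbp1*, which is deleted in all cells of PZKO mice rather than in 1 cell type. ZBP1 is a sensor of left-handed nucleic acids that can signal through RIPK1 and RIPK3. No animals without the transgene were analysed here, and with 1 library per genotype no difference between PS19 and PZKO has a replicate check. Levels are given as CPM, the UMIs of a gene per 1000000 UMIs of a cell class, with an exact Poisson 95% interval, and genotype differences as the log2 ratio of PZKO over PS19 with an exact binomial 95% interval. These intervals cover counting error only, not the spread between mice or between nuclei.

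In resting cells, NF-κB dimers of the Rel proteins are held in the cytoplasm by inhibitors of the IκB family. Signals from receptors for TNF, IL-1 or microbial products activate the IκB kinase complex, of which *Ikbkb* encodes a catalytic subunit. The kinase marks IκBα, the product of *Nfkbia*, for degradation, and the freed dimers enter the nucleus. In a slower arm, the kinase NIK (*Map3k14*) drives processing of the *Nfkb2* product, which pairs with RelB. *Nfkbia*, *Nfkb2*, *Rel* and *Tnfaip3* are themselves well-known targets of NF-κB, so that their transcripts close feedback loops on the pathway. In the brain, microglia, astrocytes and vascular cells all use this pathway. Transcript counts do not measure the nuclear entry or DNA binding of the proteins.

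The sequence just before a transcript start is where such feedback can act, and for this reason stretches upstream of annotated starts of 4 members are shown. Promoter windows from RefSeq (build GRCm38.p6) were found for 5 of the 9 members, *Nfkbia*, *Nfkb2*, *Rel*, *Rela* and *Tnfaip3*. The 250 bases upstream of each annotated start were searched on both strands for the 10-base κB consensus, and the capitals mark its matches. Where a window lies in annotated exons, the matches are shown with at most 5 bases on either side. The first sequence is the whole *Nfkbia* window, chr12:55492648-55492897 on the minus strand. The second is the *Rel* window up to its first annotated exon base, chr11:23770971-23771219 on the minus strand. The next are short stretches around the matches of *Nfkb2*, chr19:46304693-46304713 and chr19:46304721-46304736 on the plus strand. The last are stretches of *Tnfaip3*, chr10:19015411-19015427 and chr10:19015521-19015540 on the minus strand. The *Nfkb2* and *Tnfaip3* stretches lie within the gene spans given below, upstream of annotated starts inside those spans.
Nfkbia: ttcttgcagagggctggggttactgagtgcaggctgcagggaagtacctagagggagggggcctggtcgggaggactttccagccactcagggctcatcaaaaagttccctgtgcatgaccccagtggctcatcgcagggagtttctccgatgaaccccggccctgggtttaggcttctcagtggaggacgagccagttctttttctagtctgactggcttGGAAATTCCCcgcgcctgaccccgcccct
Rel: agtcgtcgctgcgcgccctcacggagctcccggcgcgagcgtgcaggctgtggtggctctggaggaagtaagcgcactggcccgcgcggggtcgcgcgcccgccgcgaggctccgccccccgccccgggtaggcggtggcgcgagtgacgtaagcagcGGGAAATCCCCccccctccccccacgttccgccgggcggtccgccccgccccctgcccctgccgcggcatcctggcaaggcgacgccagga
Nfkb2 first stretch: gtcacGGGAATTCCCCccctc
Nfkb2 second stretch: cgaaaGGGGCTTTCCc
Tnfaip3 near the start: ccatcGGAAATCCCCct
Tnfaip3 further upstream: acgcgGGGACACCCCggggc
*Nfkbia* held 1 match, on the strand opposite to the one printed, 29 to 20 bases before its start. *Rel* held 2 matches that overlap by all but 1 base, between 92 and 82 bases before its start. The upstream window of *Nfkb2* held 3 matches, of which 2 overlap in the same way, and its other 2 windows held 1 match each. *Tnfaip3* held 2 matches in the window of its upstream start and none in the window of its downstream start, and *Rela* held none. Of 32851 such windows over all genes, 7.25% held at least 1 match, 1.03% at least 2 and 0.143% at least 3. A match of letters is a description and not evidence of binding.

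PZKO was the deeper library, with 151995959 UMIs in the kept nuclei against 100729375 in PS19. After filtering, 9590 of 11469 PS19 barcodes and 9307 of 10920 PZKO barcodes were kept, with a median of 5849.5 and 9015 UMIs per nucleus. The libraries shared 47 barcodes, 30 of them among the kept nuclei. Nuclei were grouped into 11 classes with at least 50 nuclei in each library. In each class all of its own markers stood above their level in the whole library, apart from excitatory neurons with 8 of 9. The classes were named from these same markers, so that this is a description and not a separate check. *Zbp1* was counted at 92 UMIs in PS19 and 38 in PZKO over all nuclei. In microglia, which held most of them, its level was 14.7 CPM in PS19 and 5.94 CPM in PZKO. The deleted part of *Zbp1* is not given in the sources used here, and 3′ reads that lie outside it would remain.

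The members differed in their level over all nuclei divided by the span of the gene, a quotient that is not an amount of transcript. Undivided, *Nfkb1* was the highest of the 9, at 102 CPM in PS19 and 101 CPM in PZKO. *Ikbkb* followed at 45.9 and 45.7 CPM, and then *Nfkbia* at 20.3 and 14.8 CPM. *Nfkbia* lies at chr12:55489410-55492647 (mm10, minus strand) and spans 3.24 kb, the shortest of the 9. Divided by its span, its level over all nuclei was 6.26 CPM per kb in PS19 and 4.58 CPM per kb in PZKO, the highest of the 9 in both libraries. *Nfkb1*, chr3:135584655-135691547 on the minus strand, spans 106.9 kb and stood at 0.953 and 0.941 CPM per kb. *Tnfaip3*, chr10:19000910-19015657 on the minus strand, was the lowest, at 0.153 CPM per kb in PS19 and 0.143 CPM per kb in PZKO, from 227 and 321 UMIs. The other members lay between 0.408 and 1.46 CPM per kb. *Nfkb2*, chr19:46304320-46312385 on the plus strand, overlaps *Psd* and a long non-coding gene on the other strand, and *Ikbkb*, chr8:22659212-22706589 on the minus strand, overlaps *Gm15346*. Assignment between overlapping genes rests on the strand of the read.

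Among the 11 classes, microglia held the highest level of 6 of the 9 members in both libraries, subunits, the kinase and inhibitors among them. Macrophages and T cells had under 50 nuclei per library and are left out of these orders. In the few macrophage nuclei *Ikbkb* was at 140 CPM [70.1, 251] in PS19 and 254 CPM [148, 406] in PZKO, and *Nfkbiz* at 140 CPM in PS19 from 11 UMIs and 74.7 CPM in PZKO from 5. *Rel* in macrophages was at 115 CPM in PS19 and 134 CPM in PZKO, from 9 UMIs each. *Tnfaip3* in PS19 T cells rested on 2 UMIs. The intervals of these macrophage values overlapped with those of microglia. *Nfkb1* encodes the precursor of a DNA-binding subunit that lacks an activation domain. Its microglial level was 514 CPM [490, 540] in PS19 and 525 CPM [500, 550] in PZKO, from 1679 and 1767 UMIs. The next class reached 211 CPM in PS19 (ependymal cells) and 219 CPM in PZKO (endothelial cells), well outside the microglial interval. At the other end, excitatory neurons had 67.8 CPM in PS19 and 72.7 CPM in PZKO, and oligodendrocytes lay next to them. Across the 11 classes the order of *Nfkb1* was the most alike between libraries of all members, with a Spearman rho of 0.973 (a description over 11 classes that share their library, with no test).

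*Rel* and *Relb*, which encode subunits with activation domains, were spread unevenly over the classes. *Rel* stood at 128 CPM [116, 141] in PS19 microglia and 133 CPM [121, 146] in PZKO microglia. In no other of the 11 classes did it exceed 21.2 CPM in PS19 or 20.1 CPM in PZKO. Among those classes the interval of each overlapped with that of the next, so that neighbours in the order could not be told apart. Some classes further apart in it did not overlap, such as excitatory neurons [11.2, 12.6] and choroid plexus cells [0.868, 8.16] in PZKO. *Relb* was at 61.3 CPM [53.1, 70.4] in PS19 microglia and 58.8 CPM [50.9, 67.6] in PZKO microglia. In PZKO the interval of pericytes, [23.0, 59.7] from 19 UMIs, reached into the microglial one. *Relb* was scarce in neurons, at 4.74 CPM in PS19 and 6.23 CPM in PZKO excitatory neurons.

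*Rela*, the subunit of the classical dimer with the main activation domain, was spread more evenly. Endothelial cells had 35.2 CPM in PS19 and 35.3 CPM in PZKO, and microglia 34.6 and 35.0 CPM, so that these classes could not be ordered. Their intervals also overlapped with those of vascular leptomeningeal cells in PS19, at 35.3 CPM [21.3, 55.2] from 19 UMIs. The same held for pericytes in PZKO, at 32.2 CPM [18.4, 52.3] from 16 UMIs. Excitatory neurons were lowest in both libraries, at 9.11 CPM [8.34, 9.93] in PS19 and 9.20 CPM [8.58, 9.85] in PZKO, where the interval of ependymal cells overlapped with theirs. *Nfkb2* had overlapping intervals at the top of its order, which pericytes led in PS19 at 21.0 CPM from 8 UMIs and ependymal cells in PZKO at 23.5 CPM from 18 UMIs. Microglia followed at 19.0 CPM in PS19 and 21.4 CPM in PZKO, and endothelial cells at 16.7 and 17.6 CPM. In choroid plexus cells of PZKO it had 0 UMIs, with an interval up to 2.94 CPM, where PS19 had 13 UMIs.

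Among the 11 classes the kinase *Ikbkb* was highest in microglia, at 144 CPM [131, 158] in PS19 and 142 CPM [129, 155] in PZKO. Endothelial cells followed at 107 CPM in PS19 and 103 CPM in PZKO, and neurons were lowest, between 36.4 and 40.9 CPM over both libraries and both neuron classes. Its range was narrow: the highest class was 3.95 times the lowest in PS19 and 3.67 times in PZKO.

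The inhibitors differed in the class that held most of them. *Nfkbia* was highest in endothelial cells: 374 CPM [338, 412] in PS19 and 466 CPM [429, 504] in PZKO endothelial cells, the cells that line blood vessels. Astrocytes came next with 80.2 CPM [74.2, 86.7] in PS19 and 55.8 CPM [51.5, 60.4] in PZKO. The astrocyte interval was above that of microglia in PS19 but overlapped with it in PZKO. Neurons had the least, 4.53 CPM in PS19 and 3.48 CPM in PZKO excitatory neurons. *Nfkbiz* encodes a nuclear IκB protein that tunes secondary inflammatory genes, and it was highest in microglia at 74.1 CPM [65.1, 84.1] in PS19 and 73.0 CPM [64.2, 82.7] in PZKO. *Tnfaip3*, a ubiquitin-editing enzyme that ends NF-κB signalling, was highest in microglia by a wide margin, at 34.0 CPM [28.0, 40.9] in PS19 and 34.7 CPM [28.7, 41.6] in PZKO. Endothelial cells came second with 5.55 CPM from 6 UMIs in PS19 and 15.3 CPM from 20 UMIs in PZKO. The other 9 of the 11 classes were at or under 6.04 CPM, with 0 UMIs in PS19 ependymal cells, inhibitory neurons and pericytes and in PZKO choroid plexus cells.

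**Figure D1:**
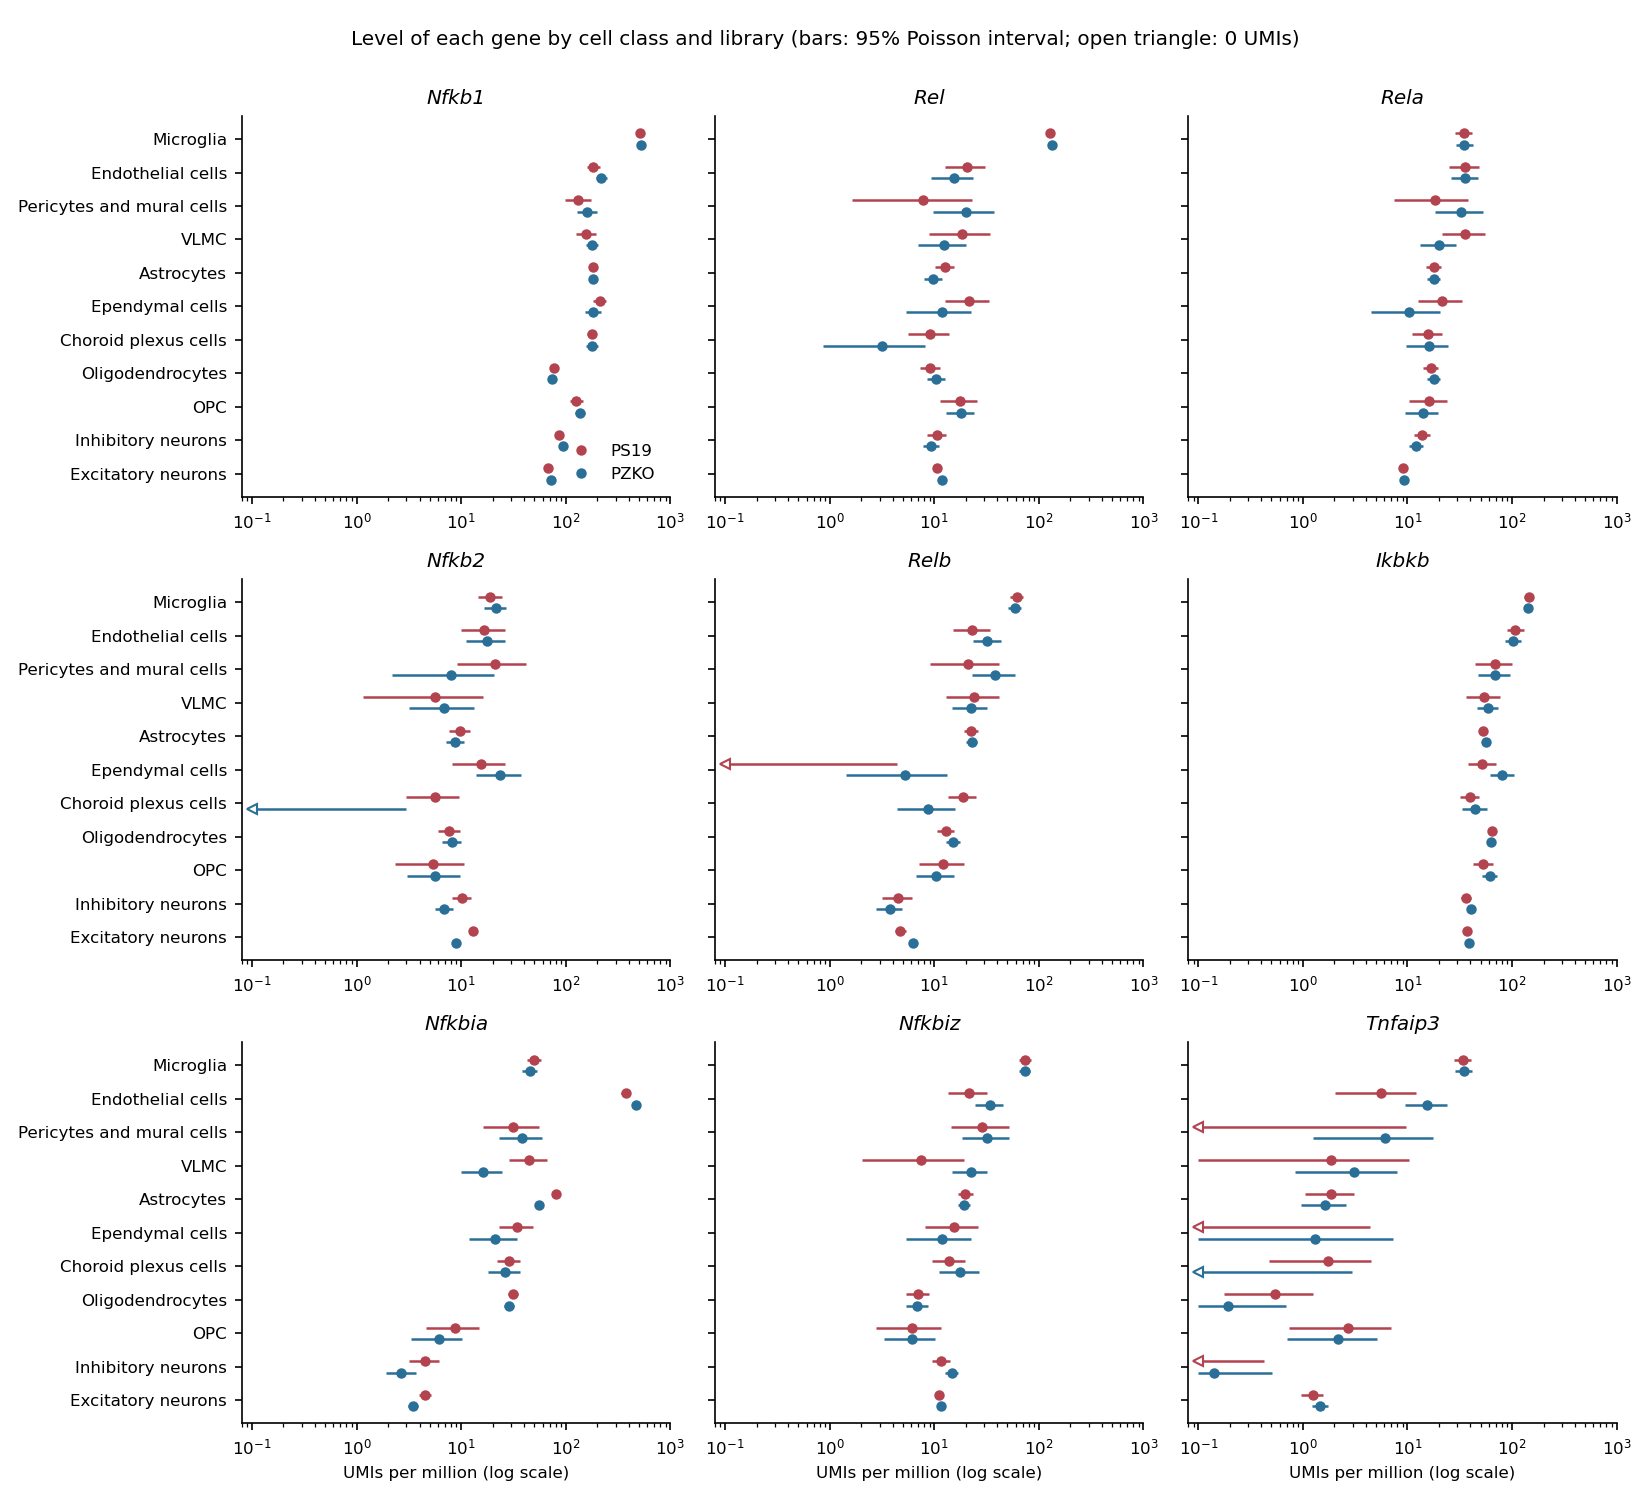
Level of each of the 9 members (panels) in 11 cell classes, in CPM on a log axis, for the PS19 and PZKO libraries; bars are exact Poisson 95% intervals, cut at 0.1 CPM, and open triangles mark 0 UMIs. *Nfkb1*, *Rel*, *Relb*, *Nfkbiz*, *Tnfaip3* and *Ikbkb* peak in microglia among these classes in both libraries, while *Nfkbia* peaks in endothelial cells, at 374 CPM in PS19 and 466 CPM in PZKO.

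In microglia the counted levels of the 9 members were close in both genotypes, with wide intervals for some. All 9 reached 100 UMIs over both libraries, and their log2 ratios of PZKO over PS19 ran from -0.14 for *Nfkbia* to 0.17 for *Nfkb2*, with every interval including 0. The tightest was *Nfkb1*, at 0.03 [-0.07, 0.13], and that of *Rel* was 0.06 [-0.14, 0.25]. *Tnfaip3*, at 0.03 [-0.36, 0.42], *Rela*, at 0.02 [-0.37, 0.40], and *Nfkb2*, at 0.17 [-0.34, 0.68], had intervals that reached beyond 0.32 in both directions. Those of *Nfkbia* [-0.47, 0.19] and *Relb* [-0.35, 0.23] did so on the lower side only. A log2 ratio beyond 0.32 in either direction was taken as past the fold. None of the 9 was past it, where 14.8% of the 8501 genes with that many UMIs were lower and 8.54% higher. The median of the members was 0.02, beside -0.02 over all genes.

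Within microglia, the nuclei were split by markers into a disease-associated group of 172 PS19 and 74 PZKO nuclei, an interferon-responsive group of 23 and 52 nuclei, and the rest. *Nfkb1* stood at 570 CPM [514, 631] in PS19 and 531 CPM [458, 613] in PZKO in the disease-associated nuclei. It was at 666 CPM [516, 845] and 710 CPM [607, 825] in the interferon-responsive ones. Nuclei of no named state were at 494 CPM [466, 522] and 508 CPM [482, 535], which overlapped with the disease-associated intervals in both libraries. The larger sub-clusters of no named state differed, at 559 and 582 CPM, 448 and 463 CPM, and 445 and 440 CPM in PS19 and PZKO. *Nfkbiz* was at 91.3 CPM [69.6, 117] in PS19 and 110 CPM [78.4, 151] in PZKO disease-associated nuclei. In PZKO interferon-responsive nuclei it reached 160 CPM [113, 219], against 60.9 CPM [52.0, 70.8] in PZKO nuclei of no state, and those intervals do not overlap. In PS19 the same groups were at 89.4 CPM [40.9, 170] from 9 UMIs and 69.0 CPM [59.1, 80.1], with overlapping intervals. These nuclei were chosen by clustering, so that differences between states are a description. In each state, with nuclei of no named state pooled, the interval of the genotype ratio included 0 for all 9 members. Among the sub-clusters of no named state this did not hold throughout. *Relb* was at 62.0 CPM in PS19 and 34.0 CPM in PZKO, -0.87 [-1.71, -0.02], in that of 133 and 198 nuclei. In the other larger ones it was at 0.22 [-0.24, 0.69] and -0.12 [-0.82, 0.56]. In that of 3 and 9 nuclei, *Nfkbiz* and *Tnfaip3* had intervals below 0 from few UMIs. *Tnfaip3* in interferon-responsive nuclei rested on 1 UMI in PS19 and 9 in PZKO.

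In astrocytes *Nfkbia* was lower in PZKO, while *Nfkb1*, *Relb* and *Rela* were at nearly the same level in both genotypes. Its level was 80.2 CPM in PS19 and 55.8 CPM in PZKO, from 650 and 618 UMIs, a log2 ratio of -0.52 [-0.69, -0.36]. *Rel* was at 12.6 and 9.75 CPM, a log2 ratio of -0.37 [-0.77, 0.04] with an interval that includes 0. *Nfkb1* differed by 0.01 [-0.09, 0.11], *Relb* by 0.02 [-0.26, 0.31] and *Rela* by 0.01 [-0.31, 0.33]. A single PS19 astrocyte nucleus held 22 of the 182 *Relb* UMIs. Of the 8 members with at least 100 UMIs, 2 were lower past the fold, *Nfkbia* and *Rel*, beside 19.9% of all 11831 genes, and none was higher, beside 6.24%. *Tnfaip3* had 15 and 18 UMIs and was below the minimum.

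By cluster, *Nfkbia* was lower in 1 of the 2 astrocyte clusters and close to equal in the other. In the cluster led by *Aqp4*, *Gfap* and *A2m* (601 PS19 and 511 PZKO nuclei), its level was 109 CPM [99.8, 118] in PS19 and 78.1 CPM [70.9, 85.8] in PZKO, a log2 ratio of -0.48 [-0.66, -0.29]. In the cluster led by *Gm12239*, *Gpc5* and *Gm6145* (482 and 655 nuclei), it was 35.3 CPM [29.0, 42.5] and 33.2 CPM [28.6, 38.4], a log2 ratio of -0.09 [-0.44, 0.27]. The intervals of both ratios overlap, and their difference was not tested. The first cluster held 55.5% of PS19 and 43.8% of PZKO astrocytes, and with both clusters given equal weight the log2 ratio was -0.37. Markers of choroid plexus summed to 426.5 CPM in PS19 and 59.9 CPM in PZKO astrocytes, with 8 of 8 lower in PZKO and none at 0. This was not particular to astrocytes. The sums were 819.7 and 110.1 CPM in PS19 and PZKO microglia, and 847.1 and 90.6 CPM in oligodendrocytes. In excitatory neurons they were 183 and 28.1 CPM, and in endothelial cells 892.3 and 129.6 CPM. The part of these markers in the *Nfkbia* result was not tested.

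Short genes as a whole were lower in PZKO astrocytes, and *Nfkbia* is a short gene. Among genes spanning under 5 kb the median log2 ratio was -0.41 over 1032 genes, and 61.8% of them were lower past the fold. Among genes of 50 kb and over the median was 0.08. Set against the median of its own length bin, *Nfkbia* was at -0.11 in astrocytes. The same gradient ran through microglia (-0.33 in the shortest bin, 0.08 in the longest), oligodendrocytes (-0.37 and 0.09) and excitatory neurons (-0.29 and 0.05), and was shallow in endothelial cells (-0.06 and 0.06). The mitochondrially encoded transcripts were lower in the same 4 classes, with medians of -0.58 in microglia, -0.63 in astrocytes, -0.59 in oligodendrocytes and -0.72 in excitatory neurons, and at 0.03 in endothelial cells. The medians of ribosomal protein genes were -0.45, -0.53, -0.47, -0.47 and 0.01 in the same order. The part of these library-wide differences in the *Nfkbia* result was not tested.

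**Figure D2:**
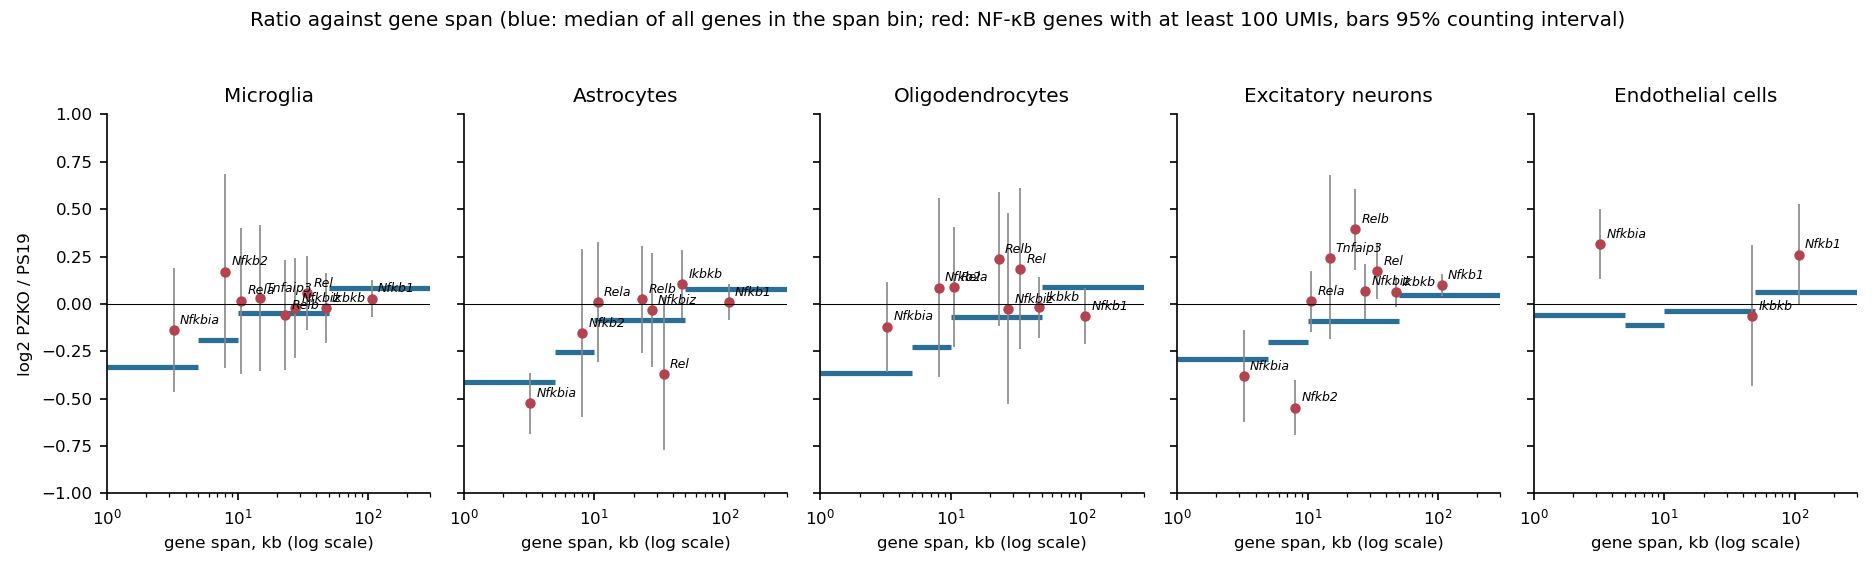
Median log2 ratio of PZKO over PS19 of all genes by the genomic span of the gene in kb (log axis), per cell class. The first bin is drawn from 1 to 5 kb and the last from 50 to 300 kb. Points are the members with at least 100 UMIs over both libraries in the class. In microglia, astrocytes, oligodendrocytes and excitatory neurons the medians climb from between -0.41 and -0.29 under 5 kb to between 0.05 and 0.09 at 50 kb and over, and *Nfkbia*, at 3.24 kb, lies in the lowest bin.

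Oligodendrocytes, the myelinating cells, showed no member past the fold. *Nfkbia* was at 31.3 CPM in PS19 and 28.8 CPM in PZKO, a log2 ratio of -0.12 [-0.36, 0.12]. In its 3 oligodendrocyte clusters the ratio was 0.01, 0.12 and 0.03, all above the pooled value. The cluster with the highest *Nfkbia*, at 42.9 CPM in PS19 and 43.3 CPM in PZKO, made up 48.6% of PS19 and 27.5% of PZKO oligodendrocytes. *Nfkb1* differed by -0.06 [-0.21, 0.09] and *Ikbkb* by -0.02 [-0.18, 0.14]. Of 8 members tested none was lower or higher past the fold, where 17.0% of 10726 genes were lower and 6.12% higher.

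In excitatory neurons *Nfkb2* was lower in PZKO, and *Relb* was higher in the class as a whole but not in CA1 or CA3. *Nfkb2* was at 13.04 CPM [12.1, 14.0] in PS19 and 8.92 CPM [8.31, 9.56] in PZKO, from 737 and 798 UMIs, a log2 ratio of -0.55 [-0.69, -0.40]. It was below 0 in each of the 8 excitatory clusters, from -0.66 to -0.14. In dentate granule cells it was -0.47 [-0.77, -0.18], in CA3 -0.52 [-0.99, -0.05] and in CA1 -0.28 [-0.67, 0.11]. The clusters of no named region together were at -0.44 [-0.66, -0.22]. The class value lay below that of each of these parts. Dentate granule cells had the highest *Nfkb2* level among them, 18.5 CPM in PS19 and 13.4 CPM in PZKO. They made up 37.8% of PS19 but 17.9% of PZKO excitatory nuclei. The part of this shift in the class value was not tested. The 8 clusters share their libraries, so that a common sign over them is not replication, and the CA1 interval included 0. Inhibitory neurons, which were clustered apart, had 10.2 CPM in PS19 and 6.90 CPM in PZKO, a log2 ratio of -0.56 [-0.99, -0.13].

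*Relb* was at 4.74 CPM [4.19, 5.34] in PS19 and 6.23 CPM [5.72, 6.77] in PZKO excitatory neurons, from 268 and 557 UMIs, a log2 ratio of 0.39 [0.18, 0.61]. The values differed between neuron types: CA1 was at -0.29 [-0.73, 0.15] and CA3 at -0.11 [-0.59, 0.37], while the clusters of no named region together were at 0.56 [0.24, 0.88]. Those clusters held 1049 PS19 and 1762 PZKO nuclei. Dentate granule cells had 8 and 13 UMIs of *Relb* and made up 37.8% of PS19 but 17.9% of PZKO excitatory nuclei. A single PZKO nucleus held 36 of the 557 UMIs, and without the top nucleus of each library the log2 ratio was 0.32, just under the fold.

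*Nfkbia* was also lower in excitatory neurons taken as a whole, and the remaining members differed less. It was at 4.53 CPM in PS19 and 3.48 CPM in PZKO, a log2 ratio of -0.38 [-0.62, -0.14], and at -0.09 against genes of like span. *Nfkb1* was at 0.10 [0.04, 0.16] and *Rel* at 0.17 [0.03, 0.32]. *Rela* was at 0.01 [-0.15, 0.18], with CA3 at -0.55 [-1.06, -0.05]. Of 9 members, 2 were lower past the fold, beside 18.0% of 15798 genes, and 1 was higher, beside 8.37%. Both counts were close to the share of all genes. *Nfkb2* spans 8.07 kb, a length at which the median gene was at -0.20 in this class. The class value of *Nfkb2* stood at -0.35 against that median.

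**Figure D3:**
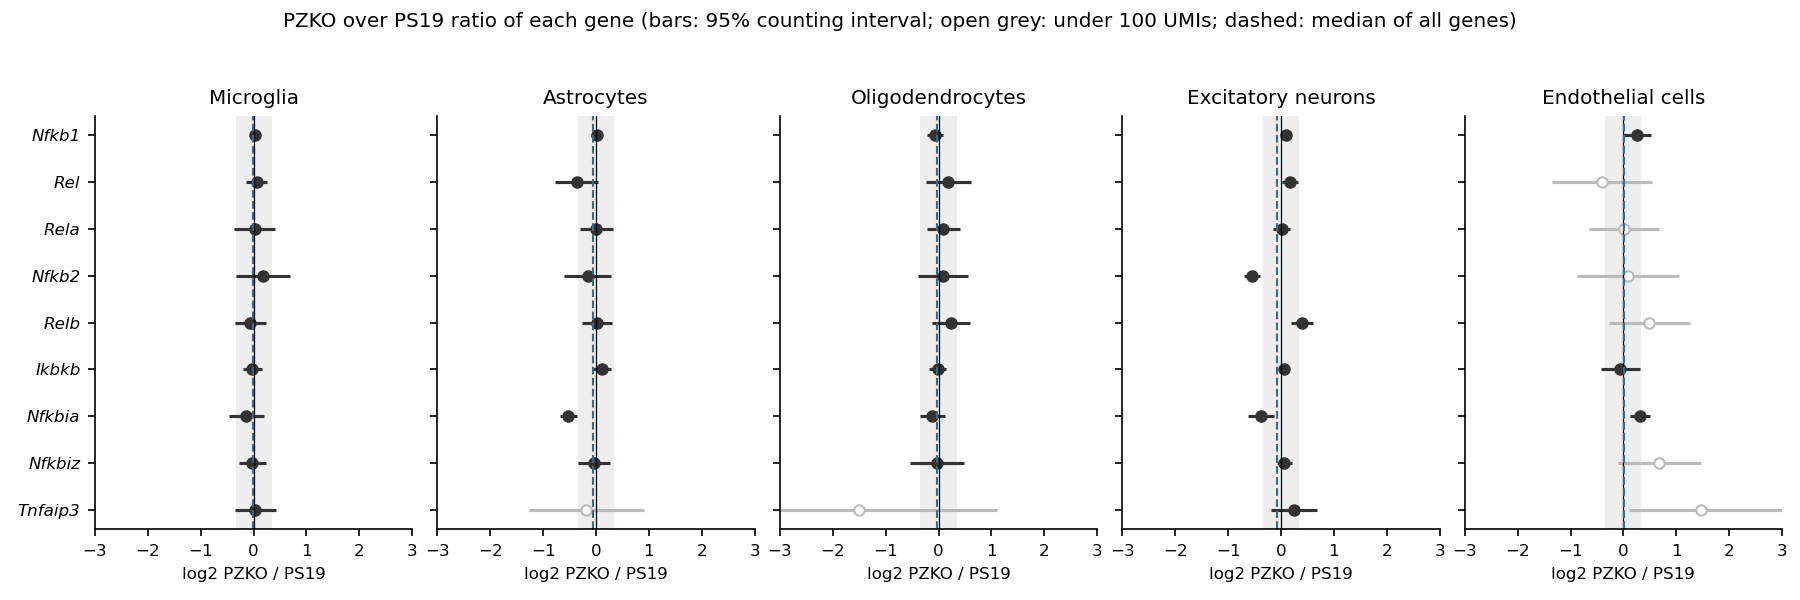
Log2 ratio of PZKO over PS19 of the 9 members in 5 cell classes with exact binomial 95% intervals; the axis is limited to 3 in either direction, the grey band holds log2 ratios within 0.32 of 0, the dashed line is the median of all genes and open grey points have under 100 UMIs over both libraries. Among points with at least 100 UMIs, *Nfkbia* (-0.52) and *Rel* (-0.37, with an interval that includes 0) are below the band in astrocytes. In excitatory neurons *Nfkbia* (-0.38) and *Nfkb2* (-0.55) are below it and *Relb* (0.39) is above it. In microglia the points of all 9 members lie inside the band, and some of their intervals reach beyond it.

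In endothelial cells *Nfkbia* had the opposite sign. It was at 374 CPM [338, 412] in PS19 and 466 CPM [429, 504] in PZKO, from 404 and 607 UMIs, a log2 ratio of 0.32 [0.13, 0.50] that stayed just under the fold. A single PZKO nucleus held 82 of these UMIs, while the most in a PS19 nucleus was 21, and without the top nucleus of each library the ratio was 0.22. Averaged over nuclei rather than summed, it was 0.04. The larger endothelial cluster, led by *Slco1a4*, *Adgrl4* and *Mecom*, was at 167 CPM [137, 202] in PS19 and 187 CPM [157, 222] in PZKO. Its log2 ratio was 0.17 [-0.21, 0.55], with an interval that includes 0. The smaller one, led by *Ly6c1*, *Ly6a* and *Cxcl12* with 60 PS19 and 52 PZKO nuclei, was at 670 CPM [596, 751] and 800 CPM [729, 875]. That cluster also had more ribosomal protein transcripts, 4.14% of its UMIs in PS19 and 4.51% in PZKO against 1.28% and 0.81% in the larger one, and *Rgs5*, a pericyte marker, was among its leading genes. The part of these values in its *Nfkbia* level was not tested.

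*Nfkb1* in endothelial cells was at 183 CPM in PS19 and 219 CPM in PZKO, a log2 ratio of 0.26 [-0.01, 0.53], and *Ikbkb* at -0.06 [-0.43, 0.31]. Of the 3 members with at least 100 UMIs, none was lower and none higher past the fold, where 11.5% of 4951 genes were lower and 12.1% higher. *Tnfaip3*, with 6 and 20 UMIs, was under the minimum, and its log2 ratio of 1.47 [0.10, 3.07] rests on these few molecules. T cell markers summed to 4.63 CPM in PS19 and 33.8 CPM in PZKO endothelial nuclei, 8 of 10 higher in PZKO, with 5 at 0 in PS19, *Cd3d* and *Cd8a* among them, and *Cd8a* at 0 in PZKO, and their part in the *Tnfaip3* value was not tested. RNA from other cells was estimated at 40.5% of the PS19 and 42.5% of the PZKO endothelial UMIs, the highest of the 5 classes. The estimate is rough: it is the median ratio of other classes' markers in the class to their share in the whole library. No empty droplets were used, and the markers included those of pericytes, at 2232 CPM in PS19 and 2048 CPM in PZKO endothelial nuclei. In the other 4 classes this estimate was at most 28.0%.

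**Figure D4:**
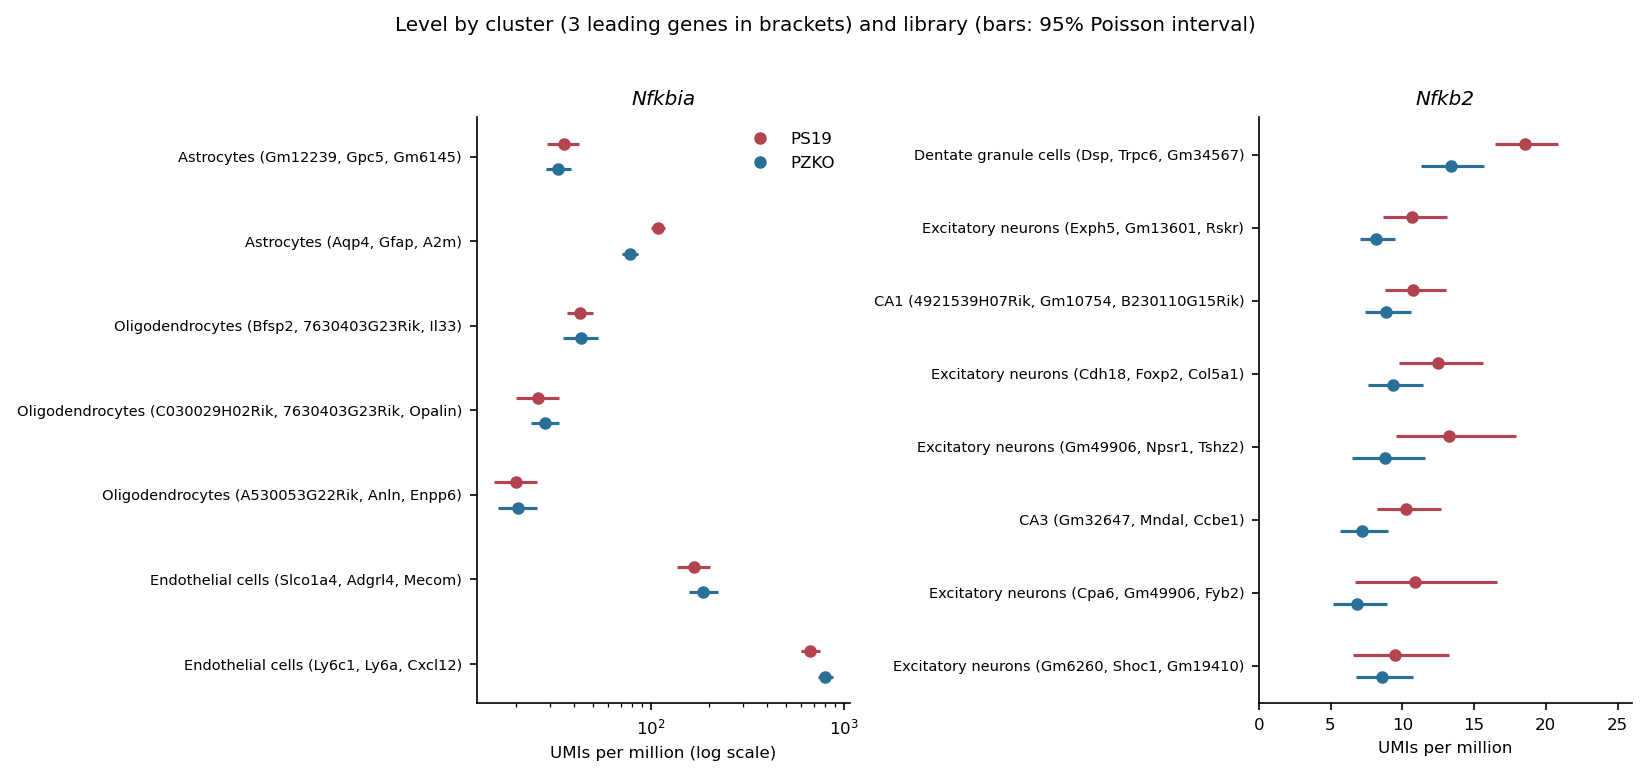
*Nfkbia* level in CPM (log axis) in the clusters of astrocytes, oligodendrocytes and endothelial cells, and *Nfkb2* level in CPM (linear axis from 0) in the 8 clusters of excitatory neurons, for PS19 and PZKO with exact Poisson 95% intervals. *Nfkbia* differs in the astrocyte cluster led by *Aqp4*, *Gfap* and *A2m* (109 against 78.1 CPM) and lies close together in the other (35.3 against 33.2 CPM). The *Nfkb2* value is lower in PZKO in all 8 neuron clusters, which share their libraries.

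Other genes of the pathway were read as fixed lists beside the members, and each count is to be set beside the share of all genes past the fold in that class. For lower genes this was 14.8% in microglia, 19.9% in astrocytes, 17.0% in oligodendrocytes, 18.0% in excitatory neurons and 11.5% in endothelial cells. For higher genes it was 8.54%, 6.24%, 6.12%, 8.37% and 12.1% in the same order. These shares are not matched for gene length, and the lists were not set against genes of like span. Among genes under 5 kb, 50.4% were lower past the fold in microglia, 61.8% in astrocytes and 56.0% in oligodendrocytes. That share was 46.0% in excitatory neurons and 19.4% in endothelial cells. Of the 10 other inhibitors, 7 reached the minimum in microglia and none was lower or higher past the fold, with a median of 0.03. In astrocytes 1 of 8 was lower, and its interval included 0. In oligodendrocytes 1 of 7 was lower and 1 higher. The first was *Bcl3*, a nuclear IκB protein, at 29.7 CPM in PS19 and 22.2 CPM in PZKO, a log2 ratio of -0.42 [-0.68, -0.16]. The second was *Tnip1*, which binds the *Tnfaip3* product, at 0.37 [0.11, 0.62]. In excitatory neurons 1 of 7 was lower, *Tnip2* at -0.33 [-0.42, -0.24], and in endothelial cells 1 of 2, *Cyld*, a deubiquitinase, at -0.48 [-0.91, -0.04].

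Kinases and adaptors between receptor and IκB kinase were close to the all-gene median in most classes. In microglia 20 of 22 were tested, 1 was lower and 2 higher, with a median of -0.01. *Sharpin*, part of the linear ubiquitin ligase, was at -0.53 [-0.94, -0.13], and *Traf6*, an adaptor of Toll-like and IL-1 receptors, at 0.37 [0.10, 0.65]. In astrocytes 2 of 21 were lower and 1 higher: *Traf5* was at -0.53, *Birc2*, a ubiquitin ligase, at -0.41, and *Ripk1*, a kinase that also binds ZBP1, at 0.37 [0.15, 0.59]. In oligodendrocytes 3 of 19 were lower, close to the share of all genes, and none higher. *Traf5*, an adaptor of TNF receptors, was at 23.7 CPM in PS19 and 7.94 CPM in PZKO oligodendrocytes, from 220 and 83 UMIs, a log2 ratio of -1.58 [-1.96, -1.21]. In excitatory neurons 1 of 21 was lower, *Traf5* at -0.42, and 2 were higher, among them *Map3k14*, the kinase of the slower arm, at 0.37 [0.21, 0.53]. In endothelial cells 1 of 11 was lower, *Birc2* at -0.58, and 1 higher, *Chuk*, the other catalytic kinase subunit, at 0.48 [0.02, 0.95].

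Of the ligands and receptors, 4 of 13 tested were lower in microglia, beside 14.8% of all genes, and none was higher, with a median of -0.13. *Il1b*, the cytokine IL-1β, was at 27.9 CPM in PS19 and 10.4 CPM in PZKO, a log2 ratio of -1.42 [-2.03, -0.85], and *Tnf* was at 32.2 and 20.2 CPM, -0.67 [-1.13, -0.22]. In astrocytes 3 of 8 were lower and none higher. *Tnfrsf12a*, the receptor of TWEAK, was at -1.01 [-1.53, -0.50] and *Tnfrsf1a*, the main TNF receptor, at -0.63 [-0.92, -0.35]. In oligodendrocytes none of the 2 tested passed the fold. In excitatory neurons 3 of 6 were lower and 1 higher: *Il1r1*, the IL-1 receptor, was at 18.7 CPM in PS19 and 9.99 CPM in PZKO, -0.91 [-1.04, -0.78], and *Tnfrsf11a*, the receptor RANK, at 0.65 [0.48, 0.82]. In endothelial cells 2 of 4 were lower and none higher, with *Il1r1* at -0.33 [-0.48, -0.18].

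The medians of known NF-κB targets differed in sign between classes. In astrocytes 6 of 12 tested were lower, beside 19.9% of all genes, and none higher, with a median of -0.35 beside -0.06 over all genes. *Ccl2*, a chemokine for monocytes, was at 10.4 CPM in PS19 and 2.62 CPM in PZKO, from 84 and 29 UMIs, a log2 ratio of -1.99 [-2.65, -1.36]. *C3*, a complement component, was at 28.6 and 11.3 CPM, -1.34 [-1.67, -1.02]. In microglia 2 of 9 were lower and 3 higher, with a median of 0.06. *Cxcl10*, a chemokine also driven by interferon, was at 7.05 CPM in PS19 and 43.0 CPM in PZKO, 2.61 [1.97, 3.31], and *Birc3* at 0.55 [0.31, 0.80], while *Ccl3* and *Ccl4* were at -0.40 and -0.37. *Cxcl10* is one of the markers that named the interferon-responsive nuclei. In endothelial cells none of 7 was lower and 4 were higher, with a median of 0.34, including *Birc3*, an inhibitor of cell death, at 0.64 [0.09, 1.21]. Of these 7 targets, only 2 had an interval wholly above 0. In excitatory neurons 2 of 9 were lower and 2 higher, and in oligodendrocytes 1 of 4 was lower and none higher.

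Immediate early genes, which respond to stimulation and to handling of tissue, had medians of the same sign as the targets in astrocytes, oligodendrocytes and endothelial cells. In astrocytes 7 of 10 were lower and none higher, with a median of -0.50. *Zfp36*, which destabilises cytokine transcripts, was at 10.9 CPM in PS19 and 4.33 CPM in PZKO, a log2 ratio of -1.33 [-1.86, -0.80]. In microglia 5 of 9 and in oligodendrocytes 5 of 7 were lower and none higher, with medians of -0.36 and -0.49. In endothelial cells none of 7 was lower and 4 were higher, with a median of 0.34, and 3 had an interval wholly above 0. In excitatory neurons 3 of 12 were lower, led by *Jun* at -1.17 [-1.28, -1.07], and 5 higher, led by *Fosb* at 1.24 [0.91, 1.58]. The part of this list's difference in that of *Nfkbia* was not tested. Nor was the list set against genes of like span. All genes under 5 kb had medians of -0.41 in astrocytes, -0.33 in microglia and -0.37 in oligodendrocytes. Nuclear long non-coding RNAs had medians of 0.28 in microglia, 0.19 in astrocytes, 0.30 in oligodendrocytes, 0.04 in excitatory neurons and 0.05 in endothelial cells.

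**Figure D5:**
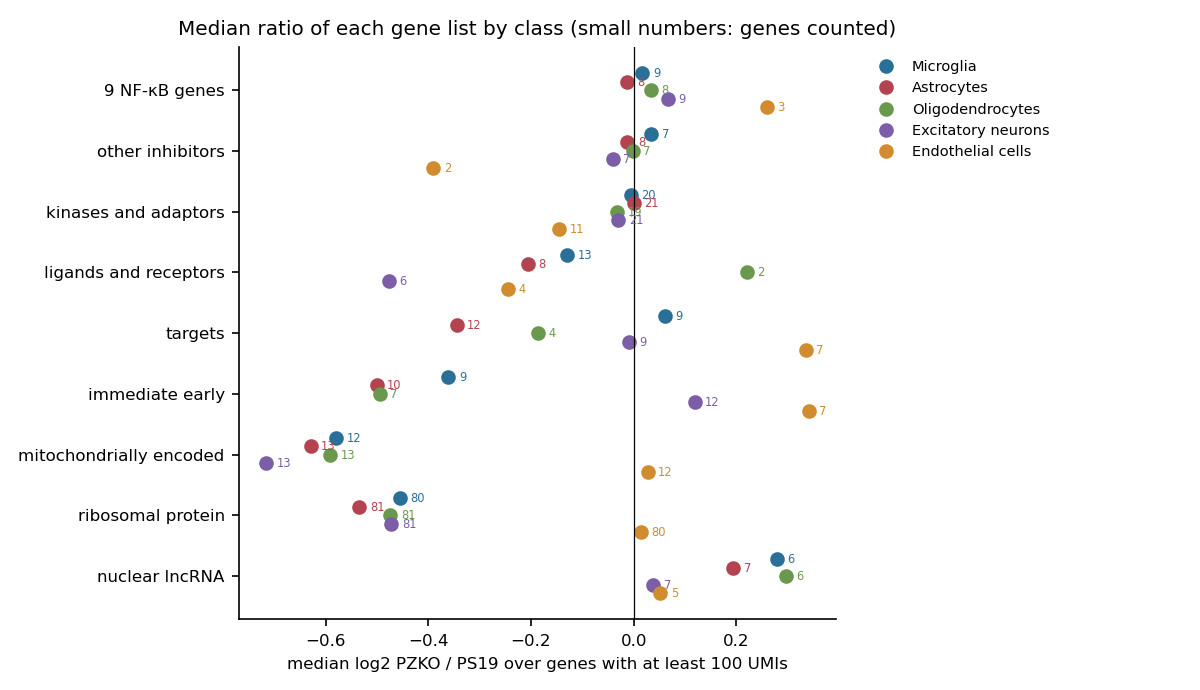
Median log2 ratio of PZKO over PS19 of each gene list in 5 cell classes, with the number of genes that reached 100 UMIs over both libraries. The members have medians between -0.01 and 0.26, while known targets and immediate early genes are at -0.35 and -0.50 in astrocytes and at 0.34 and 0.34 in endothelial cells.

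For 8 of the members, the genes whose class pattern was most like theirs were sought among 12520 genes, by Pearson's r of log2(CPM + 1) over the 11 classes in each library. The classes of a library share its depth and its RNA from other cells, so that r is a description. For *Rel* these were *Dock2*, *Spi1* and *Vav1*, with r between 0.9175 and 0.9529. For *Ikbkb* they were *C1qa*, *Rmi1* and *Rtcb*, for *Nfkb1* *Plgrkt*, *Primpol* and *Rcbtb2*, and for *Nfkbiz* *Btg1* and *Znrf2*. *Nfkbia* was most like *Gng5*, with r of 0.9604 in PS19 and 0.967 in PZKO, then *Rps24* and *Gnai2*. *Rela* was most like *Herpud1*, *Cpne3* and *Elk4*, *Relb* like *Setd3*, *Trp53* and *Usp4*, and *Nfkb2*, with the loosest matches, like *Golt1b*, *Ap1s1* and *Acsl5* at r between 0.721 and 0.820. Among these members themselves, by the lower of both r, *Nfkbia* and *Rela* were most alike, with r of 0.77 in both libraries. *Nfkb2* and *Relb* were least alike, at -0.0448 in PS19 and 0.291 in PZKO. *Rel* and *Nfkb1* had r of 0.822 in PS19 and 0.625 in PZKO, and *Nfkbia* and *Rel* 0.291 and 0.183.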

How the data were processed

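The deposited counts are whole-number UMI counts per gene and nucleus. The authors made them with Cell Ranger on mm10; the submitters' processing notes give version 7.0.1, and the matrix header, per the file headers, 8.0.1. The study's methods correct ambient RNA and remove doublets after this step; here no ambient correction was made in the main values, and doublets were removed anew. The study's protocol states that hippocampi of individual animals were processed separately and the labels call each library pooled; no animal can be told apart in the counts.

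Nuclei were kept from 600 UMIs and 300 genes upward, with mitochondrial UMIs up to 5%, and those with the highest Scrublet scores were removed at 0.8% per 1000 nuclei. The rest were clustered in scanpy 1.11.5 with Leiden (resolution 1, 2000 variable genes, 30 components, 20 neighbours), leaving the listed genes out of the variable genes, and named from fixed markers. Naming thresholds were chosen with the clusters in view. UMIs were summed per class and library. Log2 ratios beyond 0.32 were counted as past the fold, in genes whose UMIs in PS19 and PZKO came to 100 or more. No test was run, since there is 1 library per genotype. The intervals were tried on simulated Poisson counts, which hold no spread between mice or nuclei. That check therefore covers counting error only. The members, lists and classes were chosen with earlier results of these data known. From each list, up to 2 genes with the lowest and 2 with the highest ratio and an interval on 1 side of 0 were eligible to be named per class. The lists are other inhibitors, kinases and adaptors, ligands and receptors, targets, immediate early genes, mitochondrial, ribosomal protein and nuclear long non-coding transcripts. edgeR 4.0.16 and DESeq2 1.42.0 were used for scaling factors only. Gene positions are from GENCODE M21 and promoter windows from RefSeq. Windows of *Nfkbiz*, *Nfkb1*, *Relb* and *Ikbkb* were not used here. Depth and the alternatives tried are given in the report and in the closing section. Of the genes most like *Nfkbiz*, 1 is not reported here.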

Additional observations from a re-analysis of the deposited data

Results flagged for a closer look

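The ratio of *Nfkbia* had intervals on opposite sides of 0 in different classes: the log2 ratio of PZKO over PS19 was -0.52 in astrocytes and -0.38 in excitatory neurons, against 0.32 in endothelial cells. The difference between classes was not tested, because there is 1 library per genotype. In PZKO endothelial cells 1 nucleus held 82 of the 607 UMIs, and the interval does not cover spread between nuclei. The ratio averaged over nuclei is given below.

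The members were also counted in nuclei that entered no comparison. Nuclei of clusters that could not be named held 4258 UMIs of the 9 members, macrophages 157, T cells 125 and Cajal-Retzius cells 73.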

How the results depend on the processing

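Over 17 alternatives, 430 of 444 alternative ratios stayed within the interval of the ratio as reported and 14 did not; 113 of 140 counts of members past the fold were kept and 27 moved. The comparison with genes of like span, the removal of the top nucleus and equal weights for the clusters of astrocytes, oligodendrocytes and endothelial cells were chosen after seeing the data. Centred on genes of like span, the log2 ratio of *Nfkbia* was -0.11 in astrocytes, where the other alternatives gave -0.59 to -0.37, and that of *Nfkb2* in excitatory neurons -0.35, where the others gave -0.57 to -0.44. In oligodendrocytes *Nfkbia*, at -0.12, was above 0 under 4 alternatives: 0.08 averaged over nuclei, 0.12 under the stricter nucleus filter, 0.05 with clusters weighted equally and 0.25 against genes of like span. Against genes of like span it was also 0.19 in microglia and -0.09 in excitatory neurons. In endothelial cells it was 0.04 averaged over nuclei, 0.12 under the stricter filter and 0.16 without doublet removal. The cause was not tested.

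Counts of members past the fold moved as follows. With TMM factors or DESeq2 size factors, 1 member was lower in astrocytes, 1 was lower in excitatory neurons and 1 was higher in endothelial cells, and with DESeq2 size factors 2 were higher in excitatory neurons. Against genes of like span, 1 was higher in microglia, 0 were lower in astrocytes, 1 was lower and 2 were higher in excitatory neurons, and 1 was higher in endothelial cells. With a fold of 1.5, 0 were lower in astrocytes, and 0 were lower and 0 higher in excitatory neurons. With ambient RNA subtracted, 2 were higher in oligodendrocytes, 2 in excitatory neurons and 1 in endothelial cells. Averaged over nuclei, 1 was higher in oligodendrocytes. With the stricter filter or without doublet removal, 1 was lower in excitatory neurons, and without the top nucleus 0 were higher there. With no minimum of UMIs, 1 was lower in oligodendrocytes, and 1 was lower and 3 were higher in endothelial cells; with at least 20 UMIs in each library, 1 was lower and 2 were higher in endothelial cells.

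No paired analysis was possible because each genotype has 1 library. Depth limited *Tnfaip3* and most members of the vascular classes, whose intervals reach beyond a log2 ratio of 0.32.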

Other observations

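In the small classes that were not compared, *Nfkb1* was at 447 CPM in PS19 and 567 CPM in PZKO macrophages, from 35 and 38 UMIs, and at 279 and 484 CPM in T cells, from 18 and 45 UMIs. In vascular leptomeningeal cells *Nfkbia* was at 44.6 CPM in PS19 and 16.1 CPM in PZKO, from 24 and 21 UMIs, a log2 ratio of -1.47 [-2.38, -0.56], and *Nfkbiz* at 7.44 and 22.3 CPM, from 4 and 29 UMIs. *Ikbkb* in ependymal cells was at 51.9 CPM in PS19 and 80.9 CPM in PZKO, a log2 ratio of 0.64 [0.06, 1.23] from 44 and 62 UMIs. *Nfkbiz* in inhibitory neurons was at 11.6 and 14.7 CPM, a log2 ratio of 0.35 with an interval that reached just below 0.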
